A study of Mus musculus with 6 samples.

Results

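The 10 genes described here are known as factors of blood stem and progenitor cells, and were followed in myeloid cells of the infarcted mouse heart and of the spleen. They are Cd34, Gata2, Tal1, Lyl1, Erg, Hoxa7, Hoxa9, Meis1, Sox4 and Mycn. Members were the non-control probes whose gene name in the scanner files is one of these symbols. All 10 genes had a probe, with 15 probes among the 39429 on the array. Of the 16365 named genes that entered the test of heart against spleen, 6 were members (Cd34, Tal1, Lyl1, Hoxa9, Meis1 and Sox4), represented by probes well above background on all 6 arrays. Gata2, Erg, Hoxa7 and Mycn did not enter it. Among the tested members, Lyl1 was lower in heart, and no member was higher in heart.

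RNA was measured on 6 single-colour microarrays, 3 of heart (heart 1, heart 2 and heart 4) and 3 of spleen (spleen 1, spleen 2 and spleen 4). Every sample came from wild-type C57BL/6N mice 3 days after acute myocardial infarction (AMI), the death of heart muscle after loss of its blood flow. There were no uninjured animals among the samples used here, so both groups carry the infarction. The heart samples are cells of the infarcted left ventricle and the spleen samples are cells of the spleen, each sorted by flow cytometry for high CD45 (a surface protein of white blood cells) and high CD11b (a myeloid integrin). The sort kept cells with low staining for antigens of other lineages: CD45R/B220 of B cells, CD90.2/Thy-1.2 of T cells, NK-1.1 and CD49b/DX5 of natural killer cells, and Ly6G of neutrophils. Each array took 10 ng of RNA through a single round of amplification. The labels state that each spleen and ventricle was measured on its own. They do not state whether samples with the same number share an animal, so the tissues were compared without pairing. The p-values set the difference between tissues against the spread among these samples, pooled over both tissues.

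Blood stem cells and early progenitors hold a network of transcription factors that bind DNA together. TAL1 and LYL1 are related basic helix-loop-helix proteins that pair with E proteins such as TCF3 and meet GATA2, ERG and the bridging proteins LMO2 and LDB1 on shared regulatory elements. HOXA7 and HOXA9 are homeodomain factors, and MEIS1 is a TALE homeodomain factor that binds DNA with them. SOX4 is an HMG-box factor, MYCN is a MYC protein that pairs with MAX, and CD34 is a sialomucin on the surface of progenitors and of blood vessel lining cells. After infarction the spleen is known as a site where myeloid cells are made and from which monocytes leave for the heart. GATA2 is also used by mast cells and basophils, TAL1 by red cell precursors, and ERG by vessel lining cells, so these genes are not specific to stem cells.

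The 75th percentile of processed signal lay between 1451 and 1870 on the 6 arrays, and 52.8% to 63.6% of probes were well above background. No spot was saturated. All 7 genes of the sort and macrophage list were well above background on all arrays, including Ptprc (CD45) and Itgam (CD11b). Spleen 1 stood apart from the other spleens by markers of the B cell and red cell lineages and by Thy1. Its summed level of 11 B lineage markers was 127 (in units of the array's 75th percentile), against 4.90 on spleen 2, 3.96 on spleen 4 and 0.91 to 1.51 on the hearts. Its sum of 11 erythroid markers was 160, against 20.0 on spleen 2, 8.31 on spleen 4 and 8.95 to 40.1 on the hearts. Thy1, the antigen of the T cell stain, had a processed signal of 23159 on spleen 1, 695 on spleen 2 and 157 on spleen 4. The fold changes of the tested members and the calls in the gene lists tied to them are therefore given with and without spleen 1.

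Upstream sequence is shown for 3 members on which the results turn: Lyl1, the member called lower in heart; Sox4, the member whose call depends on spleen 1; and Tal1, whose signal on spleen 1 was the highest of all 6 arrays. The sequences are the 250 bases before the annotated start, from RefSeq on build GRCm38.p6, and all 10 members matched that table with 14 start sites between them. Capitals mark short words bound by the members' families, searched on both strands: GATAA (the word of GATA factors), CANNTG (the E-box of helix-loop-helix factors), CACGTG (the E-box of MYC with MAX, a subset of the former), CGGAAG (ETS factors such as ERG), TGACAG (TALE factors), TGATTNAT (HOX with PBX) and AACAAAG (SOX factors).
Lyl1 (chr8:84701207-84701456, plus strand): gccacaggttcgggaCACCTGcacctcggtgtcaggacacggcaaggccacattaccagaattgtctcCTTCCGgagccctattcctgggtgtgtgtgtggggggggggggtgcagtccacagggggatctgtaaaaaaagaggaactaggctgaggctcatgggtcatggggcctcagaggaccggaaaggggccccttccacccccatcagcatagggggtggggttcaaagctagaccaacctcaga
Tal1 (chr4:115056176-115056425, plus strand, the first of its start sites): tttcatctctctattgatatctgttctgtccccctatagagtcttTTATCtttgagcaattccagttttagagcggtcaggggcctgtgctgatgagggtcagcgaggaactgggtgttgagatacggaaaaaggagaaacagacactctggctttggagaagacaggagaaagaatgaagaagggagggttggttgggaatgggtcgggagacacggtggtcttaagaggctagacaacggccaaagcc
Sox4 (chr13:28953700-28953949, minus strand): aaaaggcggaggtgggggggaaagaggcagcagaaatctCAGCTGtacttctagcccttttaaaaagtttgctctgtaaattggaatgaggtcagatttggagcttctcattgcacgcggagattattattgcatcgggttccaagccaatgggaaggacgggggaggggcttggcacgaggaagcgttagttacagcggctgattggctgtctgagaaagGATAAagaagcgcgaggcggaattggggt
The Lyl1 window held 1 CANNTG and 1 CGGAAG word. The Tal1 window held 1 GATAA word, written there as its reverse complement, and no E-box. The Sox4 window held 1 CANNTG and 1 GATAA word. Over the 14 member windows GATAA occurred in 4 and CANNTG in 6, beside 22.6% and 66.2% of all 32851 windows. CGGAAG occurred in 2 (Lyl1 and Meis1) and TGACAG in 1 (Erg), beside 13.6% and 15.9% of all windows. None of the member windows held CACGTG (6.02% of all windows), TGATTNAT (2.82%) or AACAAAG (5.03%). A match is a description of the letters and does not show that a factor binds there.

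**Figure D1:**
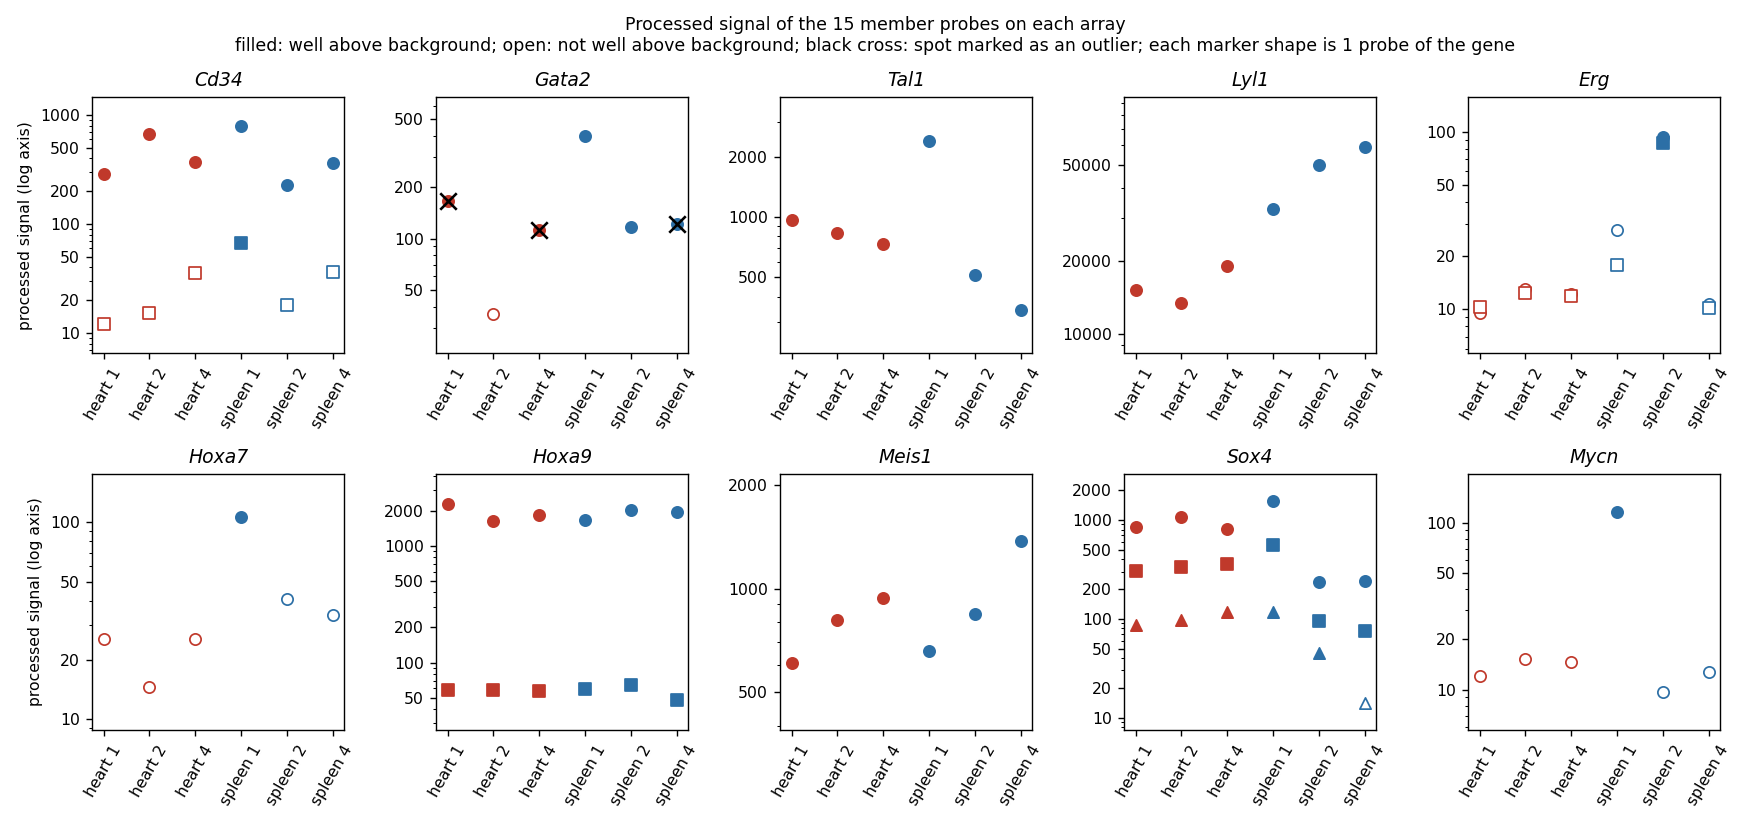
Processed signal (linear values on a log axis, with its own range in each panel) of every member probe on heart 1, 2 and 4 (red) and spleen 1, 2 and 4 (blue). Filled points are well above background, open points are not, black crosses are spots marked as outliers, and each marker shape is 1 probe. Lyl1 lies higher on every spleen array than on every heart array, and Tal1, Gata2, Hoxa7, Sox4 and Mycn have their highest spleen value on spleen 1.

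Lyl1, the helix-loop-helix relative of Tal1, separated the tissues. Its probe lies at chr8:87228531-87228590 (plus strand, mouse build mm9, as for all probe positions here, and not placed relative to exons). The processed signal was 15209 on heart 1, 13436 on heart 2 and 19099.6 on heart 4, and 32971 on spleen 1, 49946 on spleen 2 and 58929 on spleen 4. Every spleen array was above every heart array. The scaled log2 level was 3.35 ± 0.15 in heart and 4.75 ± 0.54 in spleen (SD, n = 3 each). Lyl1 was 2.65-fold lower in heart, a log2 fold change of -1.41 with a standard error of 0.30 (limma, adjusted p = 0.027 over all genes tested). In bulk samples such as these, fewer cells with a transcript and less of it per cell cannot be told apart.

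As background to that call, 6.52% of the genes tested were lower in heart at an adjusted p under 0.05 and 8.88% were higher, and the tissues did not overlap for 40.6% of genes with 6 usable values. Lyl1 was 1 of 6 tested members on both the first and the last of these measures. The direction was the same under all 22 alternatives, with log2 fold changes between -1.82 and -1.21, and the call was lost under 8 of them. With 5 arrays the adjusted p was 0.109 without heart 1, 0.112 without heart 2, 0.0897 without heart 4 and 0.0713 without spleen 2 (limma), while without spleen 1 the log2 fold change was -1.71 with an adjusted p of 0.0051. On slide 2, the slide that carried both tissues, heart 1 minus spleen 4 was -1.82 for Lyl1 on the log2 scale. Between the samples of the later date in the titles, heart 4 minus spleen 4 was -1.65.

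Tal1, the helix-loop-helix factor shared by stem cells and red cell precursors, varied mainly among the spleens. At its probe (chr4:114744219-114744278, plus strand) the processed signal was 962 on heart 1, 830.1 on heart 2 and 735 on heart 4, and 2409 on spleen 1, 513 on spleen 2 and 345 on spleen 4. Spleen 1 lay above all hearts and the other spleens below all hearts. The log2 level was -0.89 ± 0.28 in heart and -1.18 ± 1.37 in spleen (SD, n = 3 each). The log2 fold change was 0.29 with a 95% interval of -1.27 to 1.86 (limma, adjusted p = 0.798). Without spleen 1 it was 1.06, with a 95% interval of 0.37 to 1.76 (limma, adjusted p = 0.0576), which also missed the threshold. Within spleen, Tal1 on spleen 1 was 4.98-fold the mean of spleen 2 and spleen 4.

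Gata2, the GATA factor of stem cells, mast cells and basophils, was measured by a single probe (chr6:88156362-88156421, plus strand). Its processed signal was 165 on heart 1, 35.9 on heart 2 and 112 on heart 4, and 399 on spleen 1, 117 on spleen 2 and 122 on spleen 4. Spleen 1 was the highest array, and the other arrays overlapped between the tissues. Heart 2 was not well above background, and the spots of heart 1, heart 4 and spleen 4 were marked as outliers by the scanner program, which left too few values for the test. With those spots kept, a choice made after the data were seen, the log2 fold change was -0.90 with a standard error of 0.65 (limma, adjusted p = 0.403). The sum of 11 mast cell and basophil markers was 14.6 on spleen 1, 19.0 on spleen 2, 2.29 on spleen 4 and 2.94 to 3.37 on the hearts. Hdc weighed most in it, with a signal of 18294, 23090 and 3396 on spleens 1, 2 and 4 and 3771 to 4525 on the hearts. Of 5 tested genes, Mcpt4 and Il4 were called higher in heart (limma, adjusted p = 0.0275 and 0.0495) and none lower, with or without spleen 1. Mcpt4 was dim on spleen 2 and spleen 4. Its log2 fold change of 1.80 was 1.06 with these at the lowest signal well above background. Other genes ran the opposite way. Cpa3, Mcpt8 and Fcer1a, not tested, were on no heart, with 1333, 2428 and 534 on spleen 1 and 653, 2290 and 292 on spleen 2. Prss34 had a log2 fold change of -4.51 (limma, adjusted p = 0.0526). Over all genes tested, 8.88% were higher. Ms4a2 and Tpsab1 were dim on every array. The part of this list in the Gata2 signal was not tested.

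Erg, an ETS factor of stem cells and vessel lining cells, was detected on spleen 2 only. At its first probe (chr16:95581811-95581870, minus strand) the processed signal was 93.2 on spleen 2, 27.9 on spleen 1, 10.67 on spleen 4 and at most 12.99 on the hearts. At its second probe (chr16:95581954-95582013) it was 86.2 on spleen 2, 17.8 on spleen 1, 10.1 on spleen 4 and at most 12.4 on the hearts. Both probes were well above background on spleen 2 and on no other array, so no fold change between the tissues is given. They target neighbouring stretches of the same transcript and are not independent replicates. Of the 28312 named genes, 1.27% were well above background on spleen 2 alone by their brightest probe. Of 12 endothelial markers, 4 were tested and 2, Cdh5 and Cldn5, were called higher in heart (limma, adjusted p = 0.0289 and 0.0323), beside 8.88% of all genes tested. For Cdh5 and Cldn5, 1 and 2 of the 3 spleens were well above background. Tek, Tie1 and Emcn were dim (not well above background) on every array, and Sox18, Robo4 and Ptprb were well above background on 2 hearts and no spleen. The summed level of the list was 2.08 on spleen 2, 2.16 and 2.52 on the other spleens and 2.71 to 3.54 on the hearts. Kdr weighed most in this sum, with a signal of 2569, 2801 and 3443 on spleens 1, 2 and 4 and 3591 to 3941 on the hearts. It was not called (log2 fold change 0.50, limma, adjusted p = 0.160), nor was Pecam1 (-0.63, adjusted p = 0.426). The sum is thus mainly the level of 1 gene.

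Among the 12 listed partners of these factors, 11 were tested, 2 were called lower in heart and none higher, beside 6.52% and 8.88% of all genes tested. The partners' median log2 fold change was -0.26, beside 0.10 over all genes tested, and its sign turned without spleen 1, to 0.20, with 2 lower and 1 higher. Tcf3, which encodes E proteins that pair with TAL1 and LYL1, had a processed signal of 2572, 2364 and 2977 on the hearts and 8529, 4007 and 5344 on the spleens. Its log2 fold change was -0.97 with a standard error of 0.25 (limma, adjusted p = 0.0461). Cbfa2t3, a corepressor found in TAL1 complexes, was 2229, 2603 and 2657 on the hearts and 4737, 6319 and 6512 on the spleens. Its log2 fold change was -1.08 with a standard error of 0.24 (limma, adjusted p = 0.0298). For both genes, as for Lyl1, all spleens were above all hearts.

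Cbfb, the binding partner of RUNX proteins and the partner with the highest mean level that was not called, had a log2 fold change of 0.30 (limma, adjusted p = 0.343). Lmo2, the bridging protein, had a log2 fold change of -0.26 (adjusted p = 0.308). Without spleen 1, Tcf3 (adjusted p = 0.0476) and Cbfa2t3 (adjusted p = 0.0096) passed the same limma test, and Tcf12, another E protein, was called higher in heart with a log2 fold change of 0.82 (adjusted p = 0.0257). The 3 partners Gata1, Gfi1b and Zfpm1, used in red cell and platelet precursors, were singled out after their values were seen. Gata1 was 2234 on spleen 1, 117 on spleen 2 and 11.5 on spleen 4, and no heart was well above background. Gfi1b was 2068 on spleen 1, 328 on spleen 2 and 213 on spleen 4, and Zfpm1 was 4579, 384 and 364. Like Tal1, these 3 genes were highest on spleen 1, the array with the highest erythroid sum. On the hearts they differed from Tal1, which was higher on every heart than on spleen 2 and spleen 4. Gfi1b was 195 to 232 on the hearts, below spleen 2, and Zfpm1 was 341 to 674. Of the 11 tested partners, 6 were highest on spleen 1 among the spleens, beside 20.7% of all genes tested. The part of the erythroid sum in the Tal1 signal was not tested.

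Hoxa9, the HOX factor most tied to progenitor self-renewal, did not separate the tissues. At its brighter probe (chr6:52174165-52174224, minus strand) the processed signal was 2297 on heart 1, 1631 on heart 2 and 1864 on heart 4, and 1665 on spleen 1, 2041 on spleen 2 and 1969 on spleen 4. Heart 1 was the highest array, and the other values of the tissues overlapped. The log2 fold change was 0.16 with a 95% interval of -0.39 to 0.71 (limma, adjusted p = 0.681), the narrowest interval among the tested members, and without spleen 1 it was 0.0029 (adjusted p = 0.994). A second probe, at chr6:52175595-52175654, was also well above background on all arrays, with 56.9 to 58.4 on the hearts and 47.8 to 63.8 on the spleens, and gave 0.17 (limma over probes, adjusted p = 0.613). Its levels lay close to the lowest well above background (log2 of -4.89 against -4.90 on heart 4), so this probe adds little. The upper end of the interval is 1.64-fold higher in heart, so the test does not show equal levels.

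Meis1, the TALE partner of HOXA9, also overlapped between the tissues. At its probe (chr11:18780695-18780754, minus strand) the processed signal was 607 on heart 1, 810.2 on heart 2 and 941 on heart 4, and 661 on spleen 1, 843 on spleen 2 and 1378 on spleen 4. Spleen 4 was the highest array, and the other values of the tissues overlapped. The log2 fold change was -0.10 with a 95% interval of -0.92 to 0.72 (limma, adjusted p = 0.867). Among the spleens Meis1 was lowest on spleen 1, and without that array the log2 fold change was -0.41 (limma, adjusted p = 0.369).

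Hoxa7, a neighbour of Hoxa9 in the HOXA cluster, was well above background on spleen 1 only (chr6:52165626-52165685, minus strand). The processed signal was 25.5 on heart 1, 14.6 on heart 2 and 25.7 on heart 4, and 106.6 on spleen 1, 40.9 on spleen 2 and 34.0 on spleen 4. All spleens were above all hearts in signal, but 5 of the 6 values were not well above background and no fold change is given. Of 16 other HOXA and TALE factors, 8 were tested and none was called in either direction, with or without spleen 1. The median log2 fold change was 0.18 with that array and 0.02 without it. Pbx2, a TALE partner of HOX proteins and the one with the highest mean level, had a log2 fold change of -0.25 (limma, adjusted p = 0.419). Hoxa2, Hoxa3, Hoxa5, Hoxa10, Hoxa11, Hoxa13 and Meis2 were dim on every array.

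Sox4, the HMG-box factor of progenitors and early lymphoid cells, separated spleen 1 from the other spleens at 3 probes. At the brightest (chr13:29040826-29040885, minus strand) the processed signal was 842 on heart 1, 1072 on heart 2 and 802 on heart 4, and 1550.1 on spleen 1, 236 on spleen 2 and 239 on spleen 4. Spleen 1 was above all hearts, and spleen 2 and spleen 4 were below all hearts. The log2 level was -0.78 ± 0.32 in heart and -1.94 ± 1.45 in spleen (SD, n = 3 each). The log2 fold change was 1.16 with a standard error of 0.69 and a 95% interval of -0.49 to 2.81 (limma, adjusted p = 0.304).

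Without spleen 1, Sox4 was called higher in heart. The log2 fold change was 1.99 with a standard error of 0.23 (limma, adjusted p = 0.0074), a 3.98-fold difference from spleen 2 and spleen 4. That was the sole member call higher in heart among the 22 alternatives, and without spleen 1 the share of all genes called higher was 9.29% and the share called lower was 6.93%. The second probe (chr13:29042856-29042915) had 302, 338 and 358 on the hearts and 558, 94.6 and 74.9 on spleens 1, 2 and 4. It gave 1.21 with all arrays and 2.05 without spleen 1 (limma over probes, adjusted p = 0.285 and 0.0046). The third probe (chr13:29044482-29044541) had 86.1, 97.6 and 116 on the hearts and 116, 44.5 and 14.1 on the spleens, where spleen 4 was not well above background. It gave 1.38 with all arrays (limma over probes, adjusted p = 0.218), or 0.82 with spleen 4 held at the floor. Its value without spleen 1 would rest on that dim spot and is not used. The 3 probes share the same RNA and are not replicates. On slide 2, heart 1 was above spleen 4 by a log2 of 1.95 at the brightest probe, and between the later samples heart 4 was above spleen 4 by 1.72.

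**Figure D2:**
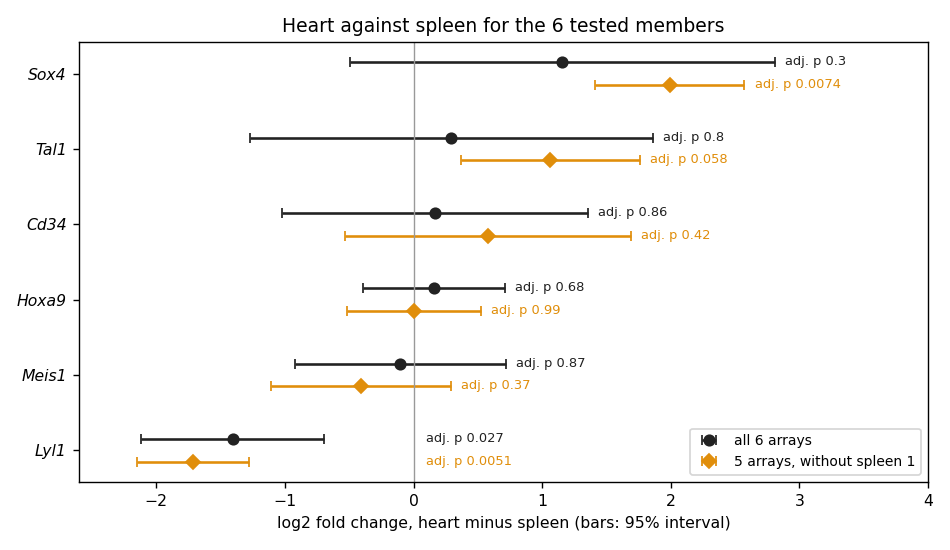
Log2 fold change of heart minus spleen (x axis) for the 6 tested members, with 95% intervals from limma, for all 6 arrays (black circles) and for the 5 arrays without spleen 1 (orange diamonds); printed beside each is the adjusted p over all genes tested. Sox4 went from 1.16 to 1.99 and Tal1 from 0.29 to 1.06 when spleen 1 was left out, while Lyl1 stayed below 0 in both.

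Mycn, the MYC protein of early development and progenitors, was well above background on spleen 1 only (chr12:12943193-12943252, minus strand). The processed signal was 116 on spleen 1, 9.73 on spleen 2 and 12.7 on spleen 4, and 12.1, 15.3 and 14.7 on hearts 1, 2 and 4. The value of spleen 1 stood alone, and the other 5 arrays were all dim. Hoxa7 and Mycn were thus 2 of 10 members well above background on spleen 1 alone, beside 3.33% of named genes.

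A list of 9 genes held relatives and partners of the MYC family and also Myb, which does not belong to that family. Of the 9, 8 were tested, 2 (Myb and Mxd3) were called lower in heart and 1 higher, beside 6.52% and 8.88% of all genes tested. Myb, a factor of dividing blood progenitors, was 7657 on spleen 1, 8056 on spleen 2 and 540 on spleen 4 while no heart was well above background. Its log2 fold change on the measured values was -6.92 (limma, adjusted p = 0.0138). With the hearts set at the lowest signal well above background on each array, Myb was at least 55.8-fold lower in heart, a bound without a test. The bound is taken against the mean log2 level of the 3 unequal spleens and does not hold for spleen 4 alone. Mxd3, a MAX partner of dividing cells, had a log2 fold change of -4.69 (limma, adjusted p = 0.0296). Its signal was 979, 3252 and 167 on spleens 1, 2 and 4, and no heart was well above background. By the same bound on the spleen mean, Mxd3 was at least 14.1-fold lower in heart. Mxi1, a MAX partner that opposes MYC, was 289, 441 and 383 on the hearts and 44.9, 121 and 24.1 on the spleens, with 2 of the 3 spleens well above background. Its log2 fold change was 2.99 (limma, adjusted p = 0.0231), or 2.69 with the dim spleen held at the floor. Without spleen 1, when 7 were tested, 1 gene was called lower and none higher: Myb was called (adjusted p = 0.0289), and Mxd3 (0.0624) and Mxi1 (0.0515) missed the threshold of the same limma test. Max itself had a log2 fold change of -0.18 (adjusted p = 0.555).

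Cd34, the surface marker of progenitors, overlapped between heart and spleen. At its brighter probe (chr1:196787392-196787451, plus strand) the processed signal was 287 on heart 1, 667 on heart 2 and 368 on heart 4, and 793 on spleen 1, 230.1 on spleen 2 and 365 on spleen 4. Spleen 2 was the lowest array, and spleen 1 and heart 2 were the highest of their tissues. The log2 fold change was 0.16 with a 95% interval of -1.02 to 1.35 (limma, adjusted p = 0.856), and without spleen 1 it was 0.58 (adjusted p = 0.421). A second probe (chr1:196785280-196785339) was well above background on spleen 1 only, with 67.6 there, 18.2 on spleen 2, 36.4 on spleen 4 and 12.03 to 35.4 on the hearts.

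Of 20 other stem and progenitor markers, 15 were tested, 4 were called lower in heart and 2 higher, beside 6.52% and 8.88% of all genes tested. The median log2 fold change of these markers was 0.17, and its sign turned without spleen 1, to -0.11, with 3 lower and 2 higher. Kit, the receptor for stem cell factor, was 2090 on spleen 1, 1249 on spleen 2 and 205 on spleen 4, and 9.47, 34.2 and 120 on the hearts, of which heart 4 alone was well above background. Its log2 fold change was -4.44 (limma, adjusted p = 0.0442), or -3.45 with the dim hearts held at the floor. Without spleen 1 the adjusted p was 0.0963. Prom1, a surface protein of progenitors, was lower in heart with a log2 fold change of -4.93 (limma, adjusted p = 0.015), and Ly6a and Ikzf1 were the other 2 lower calls, at -0.97 and -0.71.

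Procr, the receptor for protein C, was 562, 317 and 695 on the hearts and was well above background on spleen 1 alone of the spleens, at 92.3. Its log2 fold change was 4.58 (limma, adjusted p = 0.0171), or 3.35 with the dim spleens held at the floor, and without spleen 1 both remaining spleens were dim. Cd93, a receptor that monocytes also carry, was the other gene called higher in heart, at 2.34 (adjusted p = 0.015). Cd164, the marker with the highest mean level that was not called, had a log2 fold change of 0.30 (adjusted p = 0.568). Calls in this list thus ran in both directions.

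The members with their highest spleen value on spleen 1 were Cd34, Gata2, Hoxa7, Tal1, Sox4 and Mycn. These were 6 of the 9 members well above background on that array, beside 26.5% of named genes well above background there. Of the 9, 5 (Gata2, Hoxa7, Tal1, Sox4 and Mycn) were above both other spleens by a log2 of at least 1, beside 10.0% of those named genes. Lyl1, Meis1 and Hoxa9 were instead lowest on spleen 1 among the spleens. Hoxa7 and Mycn were well above background on spleen 1 alone and entered the 9 only through that array. Their place among the 6 and the 5 therefore owes to the filter and carries no weight of its own. The spread over samples was larger in spleen than in heart for all 6 tested members, as it was for 84.3% of all genes tested. The median SD was 0.70 in spleen and 0.28 in heart for the members, beside 0.41 and 0.14 for all genes tested. The B lineage and erythroid sums given above were likewise highest on spleen 1. On the hearts the B lineage sum was 0.91 to 1.51, below the 4.90 of spleen 2 and the 3.96 of spleen 4. Sox4 and Tal1 were instead higher on every heart than on spleen 2 and spleen 4. The part of both sums in the signals of these members was not tested.

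**Figure D3:**
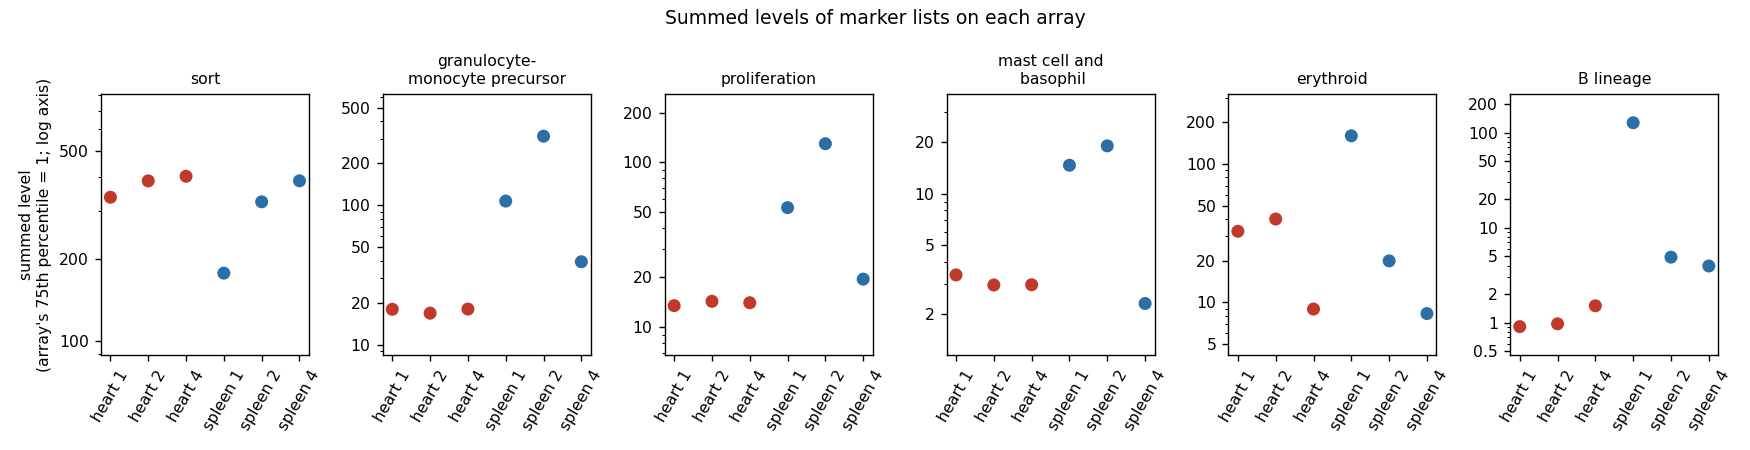
Summed level of 6 marker lists on each array (log axis, array's 75th percentile set to 1, with its own range in each panel; red, heart; blue, spleen). Spleen 1 has the highest B lineage and erythroid sums (127 and 160), and spleen 2 has the highest granulocyte-monocyte precursor and proliferation sums (313 and 129.95).

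Markers of committed granulocyte and monocyte precursors had a larger median fold change between the tissues than the tested members had, and the difference between the lists was not tested. Of 11 listed, 10 had a probe and were tested, and 7 were called lower in heart and none higher, beside 6.52% and 8.88% of all genes tested. The median log2 fold change of the list was -4.50, beside 0.16 for the tested members. Ms4a3, a gene of these precursors, had a log2 fold change of -8.99 (limma, adjusted p = 0.0070). By the bound used for Myb, without a test, it was at least 180-fold lower in heart than the spleen mean. Its signal was 14268, 37673 and 2084 on spleens 1, 2 and 4, so this bound does not hold for spleen 4 alone. Gfi1, a zinc finger repressor of the same cells, was well above background on 1 of 3 hearts, and its log2 fold change of -7.00 (adjusted p = 0.0162) was -5.90 with the dim hearts held at the floor, the lowest signal well above background on each array. Mpo, the granule enzyme myeloperoxidase, had -5.73 (adjusted p = 0.0316). Irf8, a factor of monocyte precursors and the gene with the highest mean level that was not called, had -0.42 (adjusted p = 0.253). Without spleen 1 the lower calls numbered 4 of 10, with Ms4a3 and Gfi1 among them and Mpo not (adjusted p = 0.0703).

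Of 10 proliferation markers, 8 were called lower in heart (6 without spleen 1), beside 6.52% of all genes tested. The median log2 fold change of this list was -4.55. The precursor sum was 107.2 on spleen 1, 313 on spleen 2 and 39.4 on spleen 4, and 16.9 to 18.1 on the hearts. The proliferation sum was 53.1, 129.95 and 19.5 on the spleens and 13.5 to 14.3 on the hearts. Among the spleens Lyl1 was highest on spleen 4, where both sums were lowest. Between the tissues, Lyl1 and both sums were lower on every heart than on every spleen. The relation of Lyl1 to these sums was not tested. Erg was detected on spleen 2, where both sums were highest, and the part of those cells in its signal was not tested.

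**Figure D4:**
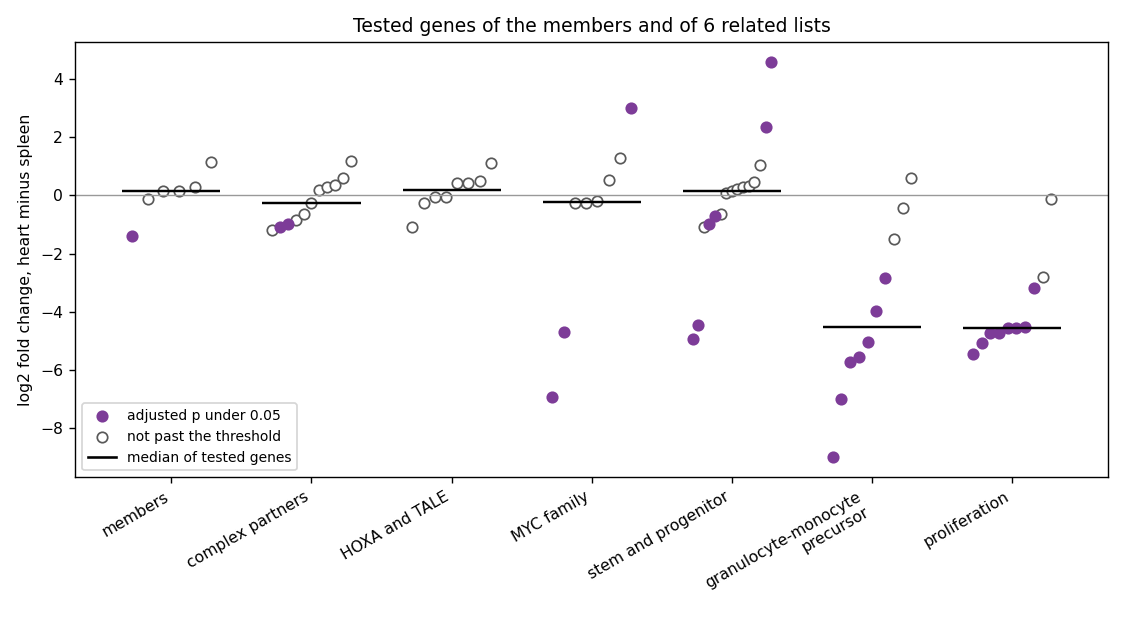
Log2 fold change of heart minus spleen (y axis) for each tested gene of the members and of 6 related lists, with filled points for genes past the threshold (limma, adjusted p under 0.05), open points for the others and bars at the medians. The tested members lie between -1.41 and 1.16, while the precursor and proliferation lists have medians of -4.50 and -4.55.

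Genes with the most similar pattern over the 6 arrays were found for each tested member as those with the smallest root mean square difference of centred log2 levels, among 16298 genes. For Lyl1 these were Nudt7 (0.080), Pxmp4 (0.085) and Pi16 (0.11). For Sox4 they were Hdac9 (0.23), Zdhhc14 (0.24) and Olfr469 (0.28), and for Tal1 Gga2 (0.20), Gm3115 (0.21) and Mylip (0.21). Cd34 was most like LOC100047121 (0.20), Hebp1 (0.27) and Rnf138 (0.29). For Meis1 the nearest were Adgre5, Heatr5b and Prr13 (each 0.10), and for Hoxa9 Olfr1312, Gm6582 and Pax2 (each 0.05 after rounding). With 6 arrays many genes share such patterns, and the likeness is a description.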

How the data were processed

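Cells of 3 infarcted ventricles and 3 spleens were measured on 6 arrays. The deposited scanner output gives each spot's linear intensity, made by the authors in Agilent Feature Extraction 10.7.3.1, which subtracted background within each array, per the file headers. The deposited value table holds log2 values whose baseline is not stated. Differences between its arrays correlated at 0.9998 to 1 with quantile-normalized log2 signals over 19313 probes, and it served as an alternative only.

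The log2 processed signal minus the array's 75th percentile was used, without control and outlier spots. A probe was tested where it was well above background on all 3 arrays of a tissue, and the tested probe with the highest mean stood for a gene. The tissues were compared in limma (version 3.58.1, under R 4.3.3), with Benjamini-Hochberg adjustment over 16365 genes, after a test on simulated data. Depth does not apply to arrays, whose number limits the precision.

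All members are named. From each other list the rule names the 3 called genes with the largest change and the tested gene with the highest mean that was not called, and for each member the 3 genes nearest in pattern. The text uses those of the lists that bear on the members. Members and lists were chosen with earlier results of these data known. Probe names come from the scanner files for the members, and 26412 of 39429 probes took current names through a RefSeq table. Figures were drawn with matplotlib. Array slide, date and replicate number were tried as blocks, beside other scalings, filters, probes per gene and omitted arrays.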

Additional observations from a re-analysis of the deposited data

How the results depend on the processing

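Across 22 alternatives, 1 of them (outlier spots kept) chosen after seeing the data, the members called higher in heart numbered 0 except without spleen 1, where Sox4 was called (range 0 to 1 when leaving out each array). The members called lower in heart numbered 1 (Lyl1), and 0 with median scaling (adjusted p = 0.0678), with no filter on dim probes (0.057), within the earlier date (0.0985) and with slide as a fixed block (0.195), and 0 to 1 when leaving out each array (all limma). Reversed signs occurred only for members that were never called: Cd34 with the 75th percentile over probes well above background on all arrays (-0.027), slide as a fixed block (-0.21), without heart 2 (-0.23) and without spleen 2 (-0.19); Meis1 with median scaling (0.021), within the earlier date (0.13), without heart 1 (0.05) and without spleen 4 (0.21); Hoxa9 with the former percentile (-0.032); and Tal1 within the earlier date (-0.10) and without spleen 4 (-0.25). Leaving out spleen 1 moved Cd34 to 0.58, Meis1 to -0.41 and Tal1 to 1.06. That percentile shifted the median of all genes by -0.19 and the share of higher calls from 57.7% to 43.2%, and median scaling shifted the median by 0.12. Calls over all genes numbered 2521, and 1449 with no filter, 3809 with array weights, 85 with slide as a fixed block, 482, 505 and 516 without heart 1, 2 and 4, and 4229 without spleen 4. With the replicate block 1587 genes were called and Lyl1 was still the 1 lower member. Deviations of samples with the same number correlated at -0.05, 0.04 and 0.01 across genes, and those with different numbers at -0.07 to 0.05. With 3 samples a tissue, such values cannot tell whether the numbers mark pairs. The numbers were not taken as pairs because the labels do not say what they mark. Erg, Mycn, Hoxa7 and the second Cd34 probe are limited by signal near background. Slide and tissue are largely confounded, since 1 of 3 slides carried both.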
